A study of Mus musculus with 8 samples.

Results

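The genes described here are 47 genes of the cell cycle and of DNA replication, measured by bulk RNA-Seq in flow cytometry-sorted blood monocytes (MCs) of mice. They were chosen by gene symbol from a written list, and 47 of the 47 symbols were found among the 16486 rows of the expression table. By role they are 5 D-type cyclins and their kinases, 3 inhibitors of cyclin-dependent kinases (CDK), 5 genes of the G1/S step, 8 genes of origin licensing and the replicative helicase, 6 genes of nucleotide synthesis and the replication fork, 10 G2/M cyclins and mitotic kinases, and 10 genes of the spindle, the chromosomes and proliferation markers.

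The study asked how Ly6Chigh and Ly6Clow MCs differ, and how each subset differs between control and diabetic mice. Control mice (CT) were untreated wild type C57/BL6 mice. Type 1 diabetes (T1DM) was modelled in C57/BL6 mice by intraperitoneal streptozotocin (STZ), a toxin of the insulin-producing beta cells, given at 8 weeks of age as 5 daily doses of 50 mg/kg each. Type 2 diabetes (T2DM) was modelled by db/db mice, which are homozygous for a mutation of the leptin receptor. The groups shared normal chow, male sex, an age of 20 to 22 weeks at blood collection and a pool of 5 mice per group. MCs were sorted as CD11b+Ly6G- cells with high or low Ly6C. There were 8 libraries: 2 of CT Ly6Chigh, 2 of CT Ly6Clow and 1 each of T1DM Ly6Chigh, T1DM Ly6Clow, T2DM Ly6Chigh and T2DM Ly6Clow MCs.

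Cells that divide pass from G1 into DNA synthesis (S phase) and on to mitosis. D-type cyclins with Cdk4 or Cdk6, and then E-type cyclins with Cdk2, release the E2F transcription factors, which switch on genes for DNA replication. Cyclin A, cyclin B, Cdk1 and the Polo and Aurora kinases then drive mitosis. Blood MCs are largely non-dividing cells that leave the bone marrow as Ly6Chigh cells, a part of which turn into longer-lived Ly6Clow cells.

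Values are the deposited log2 expression values, and a log2 difference (log2FC) is a value in Ly6Chigh MCs minus a value in Ly6Clow MCs, or diabetic minus CT. No read counts come with them, so the depth behind a value is unknown, and values are compared between libraries but not between genes. The linear values summed to between 1020068 and 1090019 in the 4 Ly6Chigh libraries and between 838696 and 878313 in the 4 Ly6Clow libraries. The median log2 value was 3.51 to 3.54 in Ly6Chigh and 3.64 to 3.65 in Ly6Clow libraries. The scale thus differed between the subsets, and the main tests applied no further scaling. The 2 CT libraries of a subset come from pooled RNA. The p-values of the CT test therefore measure only the spread between these libraries, which may be technical. In the pooled test the spread also includes how the subset difference varied between the mouse groups. In the diabetic tests it also includes the difference between the T1DM and T2DM libraries. The 2 CT libraries differed by more than 1 log2 unit for 6 of 47 members in Ly6Chigh MCs (13.8% of all rows did) and for 3 of 47 in Ly6Clow MCs (10% of all rows). The sequencer was a NextSeq 500 for CT and a HiSeq 4000 for diabetic MCs. An effect of the sequencer and one of diabetes cannot be told apart.

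The sorted subsets carried most markers of their labels. Ly6c2, which encodes the sorting antigen, stood at 8.56 to 8.72 in the 4 Ly6Chigh libraries and at 2.69 to 4.07 in the 4 Ly6Clow libraries, and 9 of 9 classical monocyte genes were higher in every Ly6Chigh library than in any Ly6Clow library. Of 10 nonclassical monocyte genes, 7 were lower in every Ly6Chigh library. Cx3cr1, Nr4a1 and Itgal overlapped and were higher in CT Ly6Chigh than in CT Ly6Clow MCs, but lower in T2DM Ly6Chigh MCs. Cx3cr1 stood at 8.59 and 8.61 in the CT pair, 8.63 in T1DM and 7.97 in T2DM Ly6Chigh MCs. The matching Ly6Clow libraries had Cx3cr1 at 7.76, 7.78, 7.72 and 8.14. Markers of other cells moved with the subsets too. The B cell list had a log2 summed level of 7.99 to 9.06 in Ly6Chigh and 12.01 to 12.38 in Ly6Clow libraries, with 10 of 10 genes lower in every Ly6Chigh library. The defining B cell gene Cd79a stood at 2.68 to 4.17 in Ly6Chigh and 8.56 to 9.08 in Ly6Clow libraries. The NK cell list ran from 4.92 to 7.14 against 7.62 to 9.99, with 6 of 10 genes apart, and the T cell list from 4.62 to 5.39 against 5.85 to 6.49, with 3 of 10 apart. The dendritic cell list ran from 6.29 to 7.27 against 7.92 to 8.73, with 4 of 7 apart. Higher in Ly6Chigh libraries were the summed levels of the neutrophil list (8.81 to 9.71 against 7.14 to 8.19) and the neutrophil precursor list (9.37 to 11.69 against 4.17 to 6.76). Of 6 neutrophil genes, 1 was higher and 1 lower in every Ly6Chigh library. Of 7 neutrophil precursor genes, 3 were higher and 1 lower. The neutrophil gene Csf3r alone stood at 8.84 and 8.83 in the CT Ly6Chigh libraries, where its list summed to 8.90 and 8.88. Chil3 is on both the neutrophil precursor and the classical monocyte list. Alone it stood at 10.37 and 10.39 in the CT Ly6Chigh libraries, where the neutrophil precursor list summed to 10.38 and 10.40. Of the B cell list, Blk was below 0 in the T2DM Ly6Chigh library (-0.26). The log2 values ran down to -4.05 over all rows, so a value of 0 does not mark absence. The part of these cells in the values of the cell cycle genes was not tested. In bulk RNA, fewer cells of a type and less RNA per cell cannot be told apart.

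**Figure D1:**
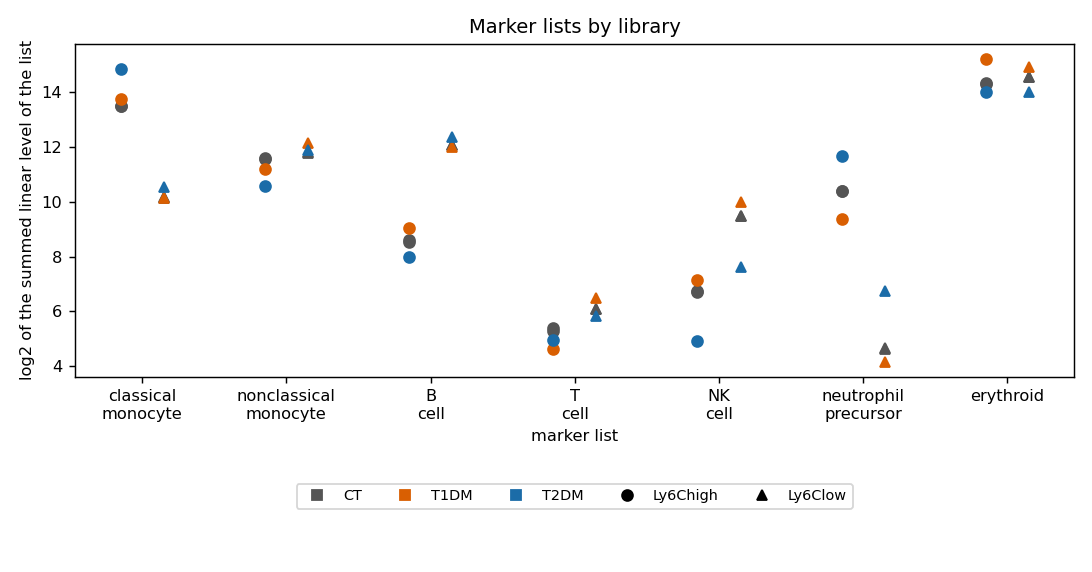
Log2 of the summed linear level of each marker list (y axis) in the 8 libraries, by list (x axis), with circles for Ly6Chigh and triangles for Ly6Clow libraries and colours for mouse groups. The B cell list is at 7.99 to 9.06 in Ly6Chigh and at 12.01 to 12.38 in Ly6Clow libraries, and the erythroid list overlaps between the subsets (14.02 to 15.22 against 14.01 to 14.94).

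Most cell cycle genes had lower values in Ly6Chigh than in Ly6Clow MCs. The pooled test of the subsets used the 8 libraries with mouse group as covariate. In it, 39 of 47 log2FC were below 0, beside 9078 of 16486 over all rows. The median was -0.77, beside -0.08 over all rows. By limma with Benjamini-Hochberg adjustment over all rows (adjusted p under 0.01 and absolute log2FC above 1), 8 members were lower in Ly6Chigh MCs (Ccnd2, Ccne1, Mcm6, Mcm7, Rrm1, Stmn1, Tpx2 and Uhrf1) and 1 was higher (E2f2). These 9 of 47 members stand beside 12.1% of all rows called, 6.76% lower and 5.37% higher. Leaving out the T1DM libraries left 5 members called, namely Ccnd2, Ccne1, Mcm6, Mcm7 and E2f2. At an adjusted p under 0.01 and any log2FC, 15 of 47 members were called (12 lower and 3 higher), beside 20.3% of all rows (8.95% lower and 11.4% higher).

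The libraries of the subsets did not overlap for 24 of 47 members (32.8% of all rows), of which 21 were lower (16.3% of all rows) and 3 higher in Ly6Chigh MCs (16.4% of all rows). The sign was the same in CT, T1DM and T2DM mice for 33 of 47 members (55.3% of all rows), with 28 lower in Ly6Chigh MCs (29.7%). Past 2-fold with the same sign in the 3 mouse groups were 6 members (10.6% of all rows). Ccnd2, Ccne1, Mcm6, Tpx2 and Uhrf1 were below (6.96% of all rows) and E2f2 was above (3.61% of all rows). Over the 47 members, the median of the values centred on each gene's mean was between -0.48 and -0.16 in the 4 Ly6Chigh libraries and between 0.28 and 0.42 in the 4 Ly6Clow libraries.

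**Figure D2:**
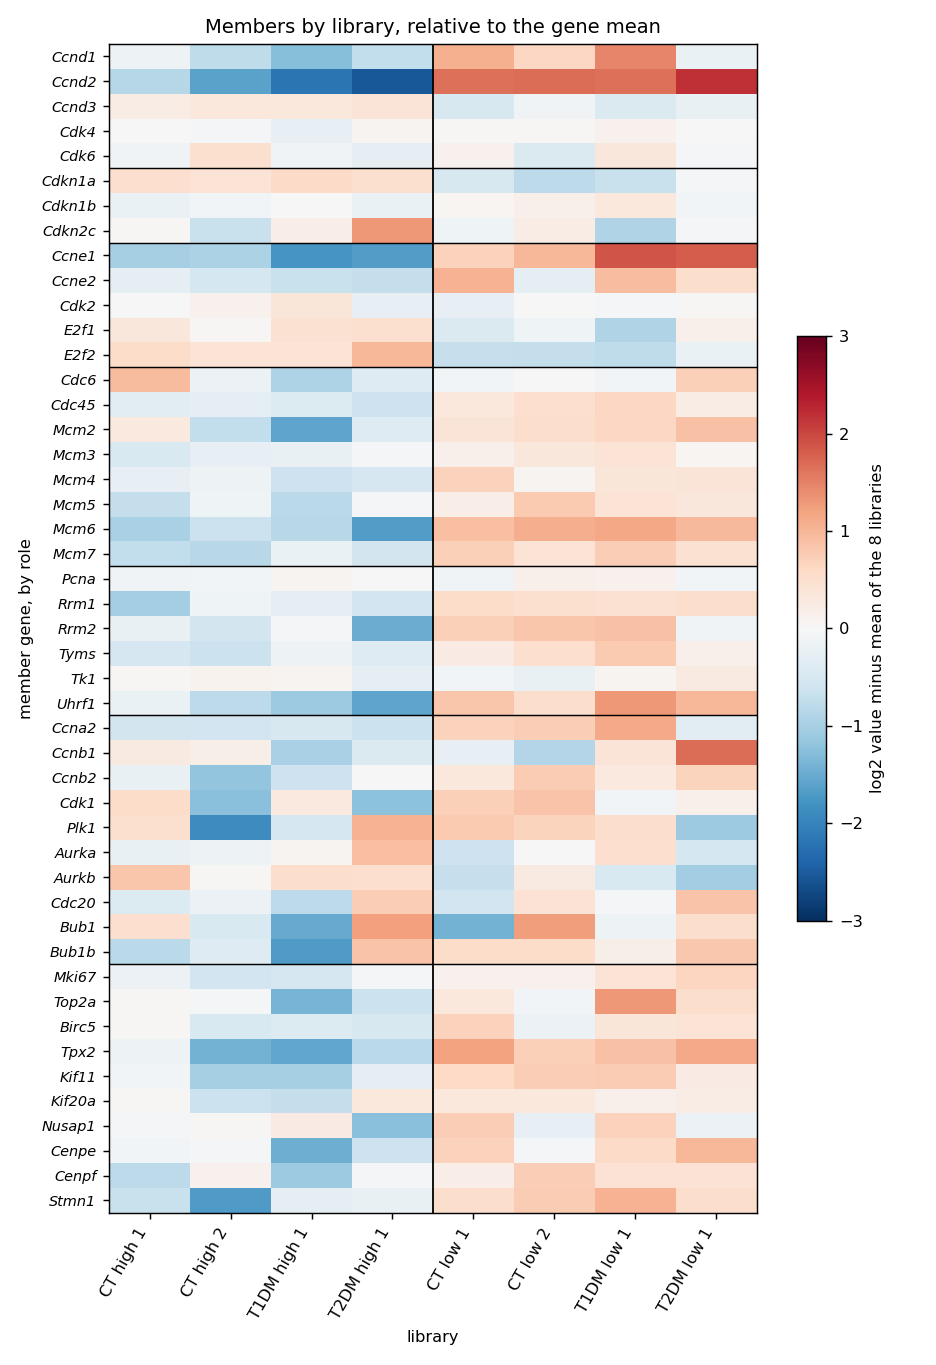
Each row is 1 of the 47 genes, ordered by role (black lines part the roles), each column is 1 of the 8 libraries, and colour gives the log2 value minus the gene's mean over the libraries. Ccnd2, Ccne1 and Mcm6 are blue in the 4 Ly6Chigh columns and red in the 4 Ly6Clow columns, while E2f2, Cdkn1a and Ccnd3 are lower in the Ly6Clow columns.

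In CT mice alone, 1 of 47 members was called (limma, Benjamini-Hochberg), E2f2, beside 3.52% of all rows, and 21 members had an unadjusted p under 0.05 (18 lower and 3 higher, beside 37.7% of all rows, 18.8% lower and 18.9% higher). The CT members had a median log2FC of -0.59, beside -0.09 over all rows. Of them, 35 of 47 were below 0, beside 8905 of 16486 over all rows. With any 1 of the 4 CT libraries left out, with the replicate block or without the variance trend, limma called 0 of the 16486 rows, while 12 to 23 members had an unadjusted p under 0.05. With quantile normalization E2f2 was not called either. Ccnd2 (adjusted p = 0.0139), Mcm6 (0.0147), Ccne1 (0.0220) and Mcm7 (0.0234) missed the limit of 0.01 in the CT test by limma, with log2FC of -2.90, -1.80, -1.82 and -1.35.

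Among the D-type cyclins and their kinases, the members went in different directions. Ccnd2 encodes cyclin D2, which activates Cdk4 and Cdk6 in G1. It stood at 4.87 and 4.12 in the CT pair, 3.54 in T1DM and 3.18 in T2DM Ly6Chigh MCs, and at 7.38 and 7.41 in the CT pair, 7.38 in T1DM and 7.92 in T2DM Ly6Clow MCs. The Ly6Chigh libraries lay far below the Ly6Clow libraries, with the diabetic Ly6Chigh libraries lowest. Ccnd2 was 12.1-fold lower in Ly6Chigh MCs (log2FC -3.59, SE 0.31, limma adjusted p = 4.6e-05), the widest difference among the members.

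Ccnd3 encodes cyclin D3, which has the same partners, and stood at 7.95 and 8.05 in the CT pair, 8.05 in T1DM and 8.13 in T2DM Ly6Chigh MCs against 7.24, 7.64, 7.31 and 7.51 in the matching Ly6Clow libraries. Every Ly6Chigh library was above every Ly6Clow library, and the log2FC of 0.62 (SE 0.10, limma adjusted p = 0.0019) was under the limit of 1. Ccnd1, the gene of cyclin D1, had Ly6Chigh values of 3.57, 2.96, 2.43 and 2.99 and Ly6Clow values of 4.80, 4.34, 5.18 and 3.52 (CT, CT, T1DM, T2DM). Its subsets overlapped, with log2FC -1.47 (SE 0.34, limma adjusted p = 0.0104). Cdk4 and Cdk6, the kinases themselves, had log2FC of -0.11 (SE 0.12) and -0.00 (SE 0.20) and overlapping libraries.

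The 3 CDK inhibitors had no call. Cdkn1a, a target of p53 that stops the cycle after DNA damage, stood at 5.52, 5.43, 5.6 and 5.51 in Ly6Chigh and 4.55, 4.22, 4.34 and 4.98 in Ly6Clow libraries (CT, CT, T1DM, T2DM). All 4 Ly6Chigh libraries were above all 4 Ly6Clow libraries, with a log2FC just under the limit of 1 (0.99, SE 0.16, limma adjusted p = 0.0016). Cdkn1b, which holds resting cells out of S phase, lay between 6.74 and 7.27 in the 8 libraries (log2FC -0.24, SE 0.09, limma adjusted p = 0.066). Cdkn2c, an inhibitor of Cdk4 and Cdk6, was between 1.29 and 3.48, with overlapping subsets.

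At the G1/S step, Ccne1 and E2f2 were called in opposite directions. Ccne1 encodes cyclin E1, the partner of Cdk2. Ccne1 stood at 1.14 and 1.18 in the CT pair, 0.37 in T1DM and 0.46 in T2DM Ly6Chigh MCs, against 2.84 and 3.13 in the CT pair, 4.02 in T1DM and 3.95 in T2DM Ly6Clow MCs. The gap between the subsets was wider in both diabetic groups than in CT, on both sides, and the pooled difference was 6.48-fold lower in Ly6Chigh MCs (log2FC -2.70, SE 0.38, limma adjusted p = 0.00082). Ccne2, the gene of cyclin E2, was lower in every Ly6Chigh library (1.16 to 1.58) than in any Ly6Clow library (1.60 to 2.92), but its log2FC of -1.11 (SE 0.36) missed the limit (limma adjusted p = 0.0425).

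E2f2 encodes an E2F factor of the activating class and stood at 7.89 and 7.76 in the CT pair, 7.77 in T1DM and 8.35 in T2DM Ly6Chigh MCs. In Ly6Clow MCs it stood at 6.66 and 6.63 in the CT pair, 6.58 in T1DM and 7.15 in T2DM. In both subsets the T2DM library was the highest, and the subsets did not overlap. E2f2 was 2.28-fold higher in Ly6Chigh MCs (log2FC 1.19, SE 0.08, limma adjusted p = 1.3e-05), and with quantile normalization its log2FC was 0.94, under the limit. E2f1, a factor of the same class, had log2FC 0.65 (SE 0.25, limma adjusted p = 0.080) and Cdk2 0.13 (SE 0.16), both with overlapping libraries.

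The genes of origin licensing and the helicase had log2FC below 0 in 8 of 8, with a median of -0.84. The Mcm2 to Mcm7 proteins form the ring of the replicative helicase, Cdc6 loads it, and Cdc45 is part of the active form. Mcm6 stood at 3.08 and 3.40 in the CT pair, 3.21 in T1DM and 2.38 in T2DM Ly6Chigh MCs, and at 4.94 and 5.14 in the CT pair, 5.21 in T1DM and 5.01 in T2DM Ly6Clow MCs. The Ly6Clow libraries were close together and the T2DM Ly6Chigh library was lowest, and Mcm6 was 4.16-fold lower in Ly6Chigh MCs (log2FC -2.06, SE 0.20, limma adjusted p = 9.0e-05).

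Mcm7 had Ly6Chigh values of 3.41, 3.30, 3.93 and 3.58 and Ly6Clow values of 4.86, 4.54, 4.87 and 4.60 (CT, CT, T1DM, T2DM). The subsets did not overlap, and Mcm7 was 2.24-fold lower in Ly6Chigh MCs (log2FC -1.16, SE 0.17, limma adjusted p = 0.00085). Of the transcript 31-mers of Mcm7, 26.8% also occur in another gene, mostly Gm5487, so its value may include reads of that gene. Mcm2, Mcm3, Mcm4, Mcm5 and Cdc45 were also lower in every Ly6Chigh than in any Ly6Clow library but were not called, with log2FC of -1.2, -0.49, -0.77, -0.86 and -0.81. Cdc6 overlapped (-0.51 to 1.34 over the 8 libraries).

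The 6 genes of nucleotide synthesis and the replication fork had log2FC below 0 in 6 of 6 (median -0.93), of which Rrm1 and Uhrf1 were called. Rrm1 encodes the large subunit of ribonucleotide reductase, which makes the building blocks of DNA. It stood at 4.04, 4.93, 4.78 and 4.47 in Ly6Chigh and 5.61, 5.54, 5.52 and 5.58 in Ly6Clow libraries (CT, CT, T1DM, T2DM), a log2FC of -1.01 (SE 0.20, limma adjusted p = 0.0043). The Ly6Clow libraries were nearly equal, the CT Ly6Chigh libraries were 0.89 apart, and Rrm1 was called in 4 of 11 alternative settings.

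Uhrf1, which helps copy DNA methylation behind the fork, stood at 1.34 and 0.75 in the CT pair, 0.46 in T1DM and -0.05 in T2DM Ly6Chigh MCs, and at 2.38 and 2.07 in the CT pair, 2.85 in T1DM and 2.54 in T2DM Ly6Clow MCs. It was 3.57-fold lower in Ly6Chigh MCs (log2FC -1.84, SE 0.37, limma adjusted p = 0.0050; called in 5 of 11 alternative settings), at low values and with 24.2% of its 31-mers shared, mostly with Gm5648. Tyms, which makes thymidylate, had log2FC -0.85 (SE 0.17, limma adjusted p = 0.0051) and non-overlapping subsets, under the limit of 1. Pcna, the sliding clamp of the fork, and Tk1, a thymidine kinase, had log2FC of -0.04 (SE 0.10) and -0.04 (SE 0.17), and Pcna stayed between 6.36 and 6.63 in the 8 libraries. More than 10% of the 31-mers were shared with other genes in 8 of 47 members, with 23.3% for Pcna.

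The promoter letters of the called members are shown because many replication genes are known targets of E2F. NCBI RefSeq (GRCm38.p6) gave a window of 250 bases before to 50 after the start for 38 of 47 members, and none was used for Ccnd2, Tpx2 and Stmn1. An E2F match was TTTCCCGC, TTTCGCGC, TTTGCCGC or TTTGGCGC on either strand, overlaps allowed, and was found for 9 of 38 members (23.7%) and for 492 of 11654 genes of the table with a window (4.22%). The 9 were Cdc6, Cdk1, Cdk2, E2f2, Mcm3, Mcm5, Mcm6, Mcm7 and Uhrf1. The CCAAT box was found for 28 of 38 members (73.7%, beside 42.7%) and the letters TTTGAA or TTCGAA of the cell cycle homology region for 15 of 38 (39.5%, beside 18.0%). These matches are a description of letters, not of binding. The 250 bases before the start, read toward the gene, are given for the 4 called members with an E2F match, in capitals where they match. They are chr1:128359706-128359955 (minus strand) for Mcm6, chr5:138171884-138172133 (minus strand) for Mcm7, chr17:56304063-56304312 (plus strand) for Uhrf1 and chr4:136172024-136172273 (plus strand) for E2f2.
Mcm6: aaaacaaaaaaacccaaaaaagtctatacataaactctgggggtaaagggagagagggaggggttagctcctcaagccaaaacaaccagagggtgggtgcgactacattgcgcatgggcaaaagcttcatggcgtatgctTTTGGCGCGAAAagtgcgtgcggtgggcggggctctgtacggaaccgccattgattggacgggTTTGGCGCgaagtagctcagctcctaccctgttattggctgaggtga
Mcm7: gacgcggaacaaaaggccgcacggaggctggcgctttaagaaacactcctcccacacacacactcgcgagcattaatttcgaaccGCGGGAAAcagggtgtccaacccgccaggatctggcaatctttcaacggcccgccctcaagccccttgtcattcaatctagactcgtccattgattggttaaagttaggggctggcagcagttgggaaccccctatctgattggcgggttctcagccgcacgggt
Uhrf1: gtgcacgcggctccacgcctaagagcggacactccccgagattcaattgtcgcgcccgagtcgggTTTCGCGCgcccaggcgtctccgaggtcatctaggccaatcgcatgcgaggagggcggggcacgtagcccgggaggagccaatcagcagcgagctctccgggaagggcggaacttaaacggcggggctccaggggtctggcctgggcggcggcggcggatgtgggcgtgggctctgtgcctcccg
E2f2: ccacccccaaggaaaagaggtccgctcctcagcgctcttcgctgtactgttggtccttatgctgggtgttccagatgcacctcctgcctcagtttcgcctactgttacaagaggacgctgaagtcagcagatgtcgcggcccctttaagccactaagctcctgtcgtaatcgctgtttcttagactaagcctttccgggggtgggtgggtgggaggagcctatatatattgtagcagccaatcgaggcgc
Mcm6 held 3 matches between 110 and 47 bases before the start, with 1 pair overlapping on opposite strands. Mcm7 held 1 match that began 165 bases before the start and Uhrf1 held 1 at 185 bases. E2f2, the member called higher in Ly6Chigh MCs, held 0 matches before the start and 1 after it. Mcm7 held 1 more after the start. The windows of Ccne1 and Rrm1, both called lower, held 0 matches.

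The 10 G2/M cyclins and mitotic kinases had 0 calls in the pooled test (limma), with a median log2FC of -0.46 and 8 of 10 below 0. Ccna2, the gene of cyclin A2, stood at 1.57, 1.53, 1.63 and 1.46 in Ly6Chigh and 2.81, 2.84, 3.25 and 1.80 in Ly6Clow libraries (CT, CT, T1DM, T2DM). It was steady across Ly6Chigh MCs and low in the T2DM Ly6Clow library, and its log2FC of -1.13 (SE 0.29) missed the limit (limma adjusted p = 0.0166). Ccnb2, a cyclin B gene, was also lower in every Ly6Chigh library (log2FC -1.02, SE 0.36). Aurkb, the kinase of the chromosomal passenger complex, had the opposite sign (log2FC 0.95, SE 0.32, limma adjusted p = 0.050), with overlapping libraries.

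Of the 10 genes of the spindle, the chromosomes and proliferation markers, 10 had log2FC below 0 (median -0.96), and Tpx2 and Stmn1 were called. Tpx2 activates Aurora A on spindle microtubules. It stood at 1.73 and 0.48 in the CT pair, 0.35 in T1DM and 1.09 in T2DM Ly6Chigh MCs, and at 3.11 and 2.60 in the CT pair, 2.78 in T1DM and 3.02 in T2DM Ly6Clow MCs. The CT Ly6Chigh libraries were 1.25 apart but below each Ly6Clow library, and Tpx2 was 3.90-fold lower in Ly6Chigh MCs (log2FC -1.96, SE 0.35, limma adjusted p = 0.0029), and was called in 8 of 11 alternative settings.

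Stmn1 encodes stathmin, which destabilises microtubules, and stood at 1.95, 0.92, 2.36 and 2.41 in Ly6Chigh and 3.15, 3.38, 3.68 and 3.16 in Ly6Clow libraries (CT, CT, T1DM, T2DM). It was 2.70-fold lower in Ly6Chigh MCs (log2FC -1.43, SE 0.32, limma adjusted p = 0.0082), and 22.4% of its 31-mers are shared, mostly with Gm11223. The call was kept in 3 of 11 alternative settings and lost without any single CT library. Mki67, the gene of the proliferation marker Ki-67, stood at 6.06, 5.67, 5.74 and 6.21 in Ly6Chigh and 6.38, 6.37, 6.66 and 6.90 in Ly6Clow libraries. Every Ly6Chigh library was below every Ly6Clow library, the nearest being T2DM Ly6Chigh at 6.21 and a CT Ly6Clow library at 6.37. The subset means differed by a log2FC of -0.66 (SE 0.13, limma adjusted p = 0.0041). Top2a, a topoisomerase of dividing cells, overlapped, with log2FC -1.02 (SE 0.39, limma adjusted p = 0.077).

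**Figure D3:**
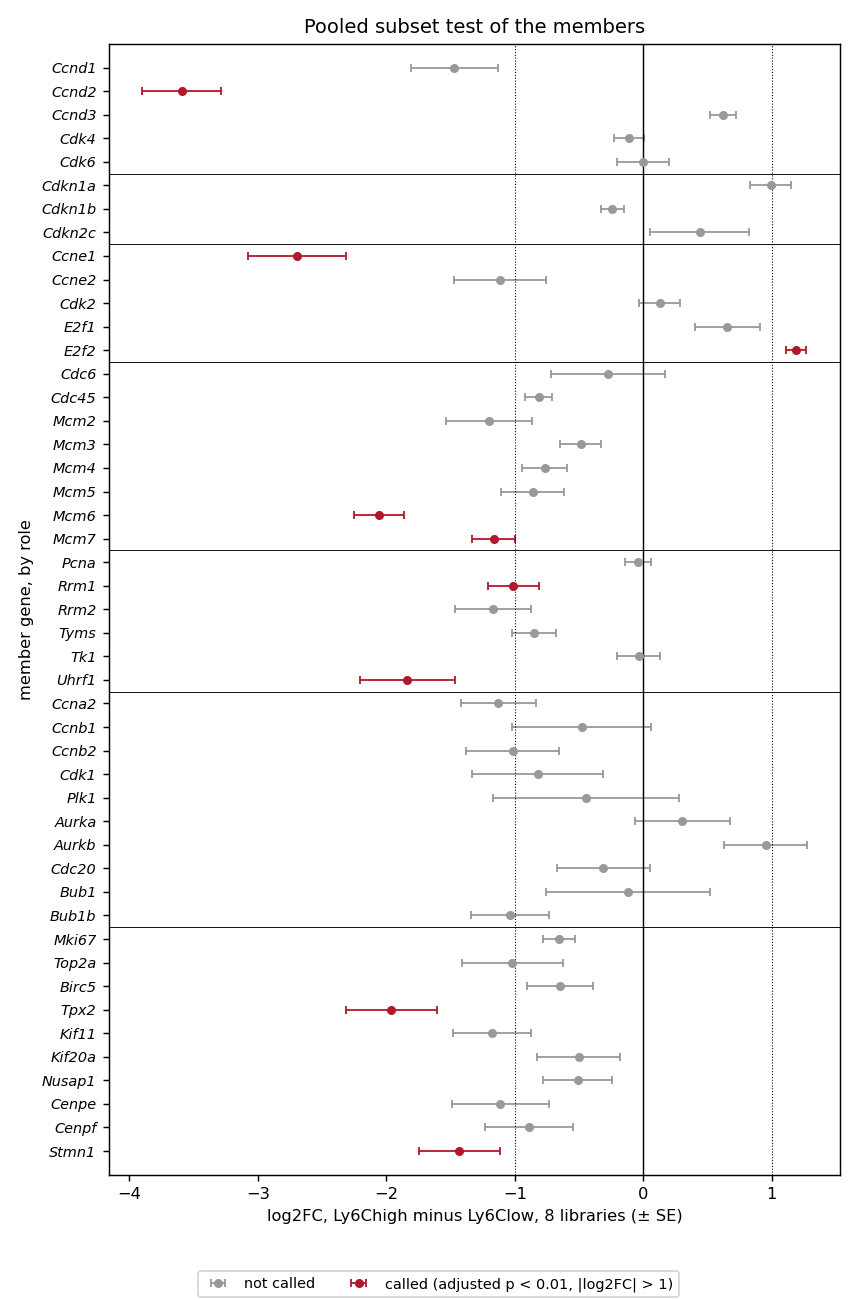
Log2FC of Ly6Chigh minus Ly6Clow MCs (x axis, points with SE) for the 47 genes (y axis, by role) in the pooled test over 8 libraries, red where called. Ccnd2 at -3.59 and Ccne1 at -2.70 lie farthest to the left, and E2f2 at 1.19 is the 1 gene called to the right.

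**Figure D4:**
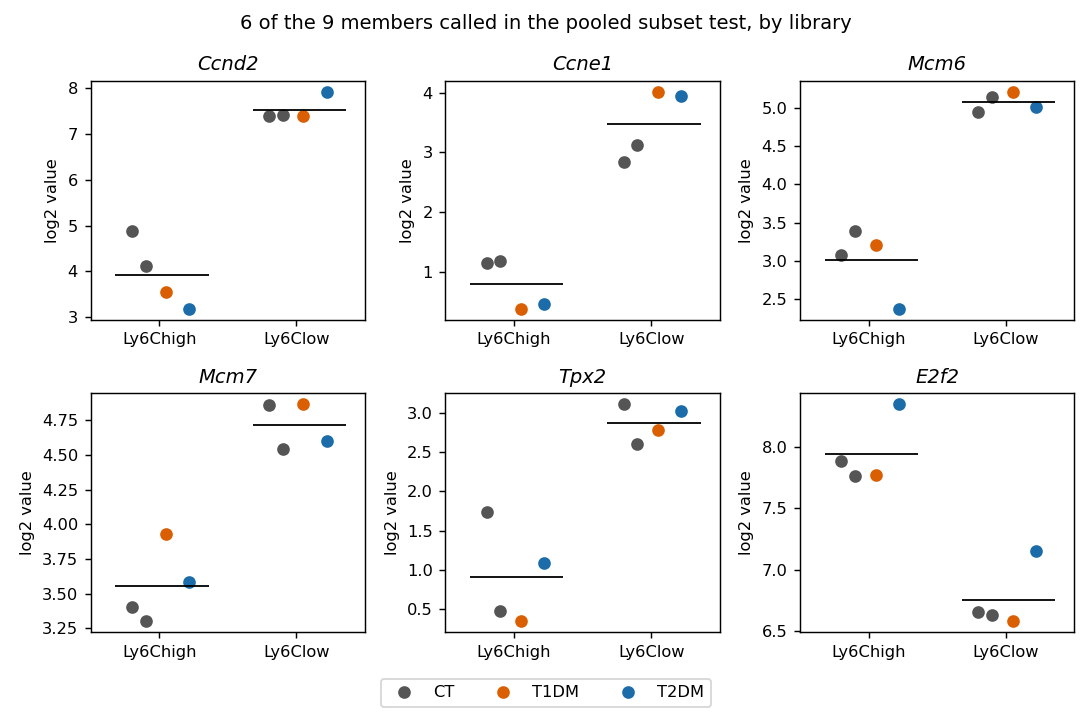
Log2 value (y axis, a separate range in each panel) of 6 of the 9 called genes in the 4 Ly6Chigh and 4 Ly6Clow libraries (x axis), coloured by mouse group, with a line at the mean of each subset. The subsets do not overlap in any panel, and Ccnd2 spans 3.18 to 4.87 in Ly6Chigh and 7.38 to 7.92 in Ly6Clow libraries.

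Of 156 further cell cycle genes on a wider list, 151 were found. In the pooled test, 19 of 151 were called by limma, 16 lower and 3 higher in Ly6Chigh MCs, which is 12.6% of them, beside 12.1% of all rows (6.76% lower and 5.37% higher). Of the 151, 114 had log2FC below 0 (median -0.39), beside 9078 of 16486 over all rows (median -0.08). The lower genes were led by Myc (log2FC -3.64, SE 0.18, adjusted p = 2.8e-06), a transcription factor that drives growth and G1 entry. Pkmyt1, a kinase that holds Cdk1 inactive (-2.54, SE 0.34), and Cdc7, the kinase that fires replication origins (-2.41, SE 0.41), followed. The 3 higher genes were Espl1, the gene of separase (log2FC 1.80, SE 0.39, adjusted p = 0.0070), Racgap1 of the central spindle (1.17, SE 0.21, adjusted p = 0.0031) and the CDK4/6 inhibitor Cdkn2d (1.05, SE 0.12, adjusted p = 0.00026). In CT mice alone, 1 of 151 was called, Myc (log2FC -3.50, SE 0.18, limma adjusted p = 0.0055), beside 3.52% of all rows.

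Between diabetic and CT mice no member was called. With the T1DM and T2DM libraries as 1 diabetic group, limma called 0 of 47 members and 0% of all rows in Ly6Chigh MCs, with 2 members at an unadjusted p under 0.05 (4.48% of all rows), both lower (2.38%). In Ly6Clow MCs it called 0 of 47 and 0% of all rows, with 2 members at an unadjusted p under 0.05 (2.97% of all rows), both higher (1.66%). The test of whether the difference between the subsets itself differs between diabetic and CT mice also called 0 of 47 and 0% of all rows, with 4 members at an unadjusted p under 0.05 (6.58% of all rows), all 4 below 0 (3.33%). The members' median log2FC was -0.07 in Ly6Chigh and 0.04 in Ly6Clow MCs, beside 0.02 and -0.00 over all rows. The CT mean and the diabetic mean of a row lay a median of 0.120 apart over all rows and 0.172 over the members, while the T1DM and T2DM means lay 0.307 and 0.333 apart. Whether the CT and diabetic libraries were adjusted to each other before deposit is not given in the sources used here and was not tested. Such an adjustment would take a difference between diabetic and CT mice that the subsets share out of the tests within each subset. A shift alike in both subsets cancels in the test of the subset difference. The counts of 0 do not show that the groups were alike.

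In Ly6Chigh MCs, Ccnd2 had a log2FC of -1.14 (SE 0.29, limma adjusted p = 0.999) and Top2a of -1.0 (SE 0.36, adjusted p = 0.999). Both diabetic Ly6Chigh libraries were below both CT libraries for these genes, at 3.54 and 3.18 against 4.87 and 4.12 for Ccnd2 and at 2.64 and 3.39 against 4.06 and 3.98 for Top2a. In Ly6Clow MCs, Ccne1 had a log2FC of 1.00 (SE 0.33, limma adjusted p = 1.00) and Ccnb1, a cyclin B gene, of 1.59 (SE 0.56, adjusted p = 1.00). Ccnb1 stood at 0.59 and -0.04 in the CT pair, 1.23 in T1DM and 2.5 in T2DM Ly6Clow MCs, at low values and with 27.7% of its 31-mers shared, mostly with the pseudogene Ccnb1-ps. The same 4 genes had an unadjusted p under 0.05 in the test of the subset difference, with diabetic minus CT values of -1.75 (SE 0.47) for Ccne1, -1.80 (SE 0.51) for Top2a, -1.39 (SE 0.41) for Ccnd2 and -2.52 (SE 0.79) for Ccnb1 and limma adjusted p from 0.62 to 0.68.

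Within 1 diabetic model there is 1 library per subset, so the values that follow have no test and no replicate check. The subset difference had the same lean in both models. In T1DM, 24 of 47 members were past 2-fold between the subsets (27.9% of all rows), 20 lower (16.8%) and 4 higher (11%) in Ly6Chigh MCs, with a median log2FC of -0.94. In T2DM, 21 of 47 were past 2-fold (29.1% of all rows), 16 lower (17.8%) and 5 higher (11.3%), with a median of -0.54. The median was -1.0 (T1DM) and -0.96 (T2DM) for the licensing and helicase genes. Whether the models differ was not tested.

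In T1DM against CT Ly6Chigh MCs, 7 of 47 members were past 2-fold and lower, beside 4.94% of all rows past 2-fold in that direction, and 0 were past 2-fold and higher (5.11% of all rows). Without CT Ly6Chigh replicate 1 there were 3 higher and 6 lower, and without replicate 2 there were 0 higher and 9 lower. After 1 was added to the linear values, 2 of the 47 were past 2-fold. Outside both CT libraries by more than 1 were 4 members (5.38% of all rows), Bub1, Ccnb1, Cenpe and Top2a. Top2a stood at 2.64 in T1DM against 4.06 and 3.98 in CT. Cenpe, a kinesin of the kinetochore, stood at 0.34 against 1.72 and 1.73. Bub1b, a gene of the spindle checkpoint, stood at 1.71 against 2.60 and 3.02. These T1DM values are the lowest of the 8 libraries for each of the 3 genes.

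In T2DM against CT Ly6Chigh MCs, 10 of 47 members were past 2-fold (13.8% of all rows), 6 higher (5.96%) and 4 lower (7.89%), and 4 of 47 after 1 was added to the linear values. Without CT Ly6Chigh replicate 1 there were 7 higher and 2 lower, and without replicate 2 the lean turned to 4 higher and 6 lower. Of the 10 G2/M genes, 7 were above 0 (median log2FC 0.88), but 6 of the 10 had a mean value under 1, and the 67 other mitosis genes of the wider list had a median of -0.09. Outside both CT libraries by more than 1 were 4 members (8.66% of all rows). Bub1b stood at 4.26 against 2.60 and 3.02, Aurka, the Aurora A kinase, at 2.39 against 1.25 and 1.33, and Cdkn2c at 3.48 against 2.23 and 1.53. The T2DM Ly6Chigh value was the highest of the 8 libraries for each of these 3 genes. Nusap1, a protein that bundles spindle microtubules, was lower, at 2.09 against 3.30 and 3.37.

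Set side by side, T2DM and T1DM Ly6Chigh MCs differed by more than 2-fold in 11 of 47 members (19.3% of all rows), 8 higher (8.46%) and 3 lower (10.8%) in T2DM, and in 3 of 47 after 1 was added. The widest difference at a mean value of at least 1 was that of Bub1b (2.55). Cdkn2c (1.09), Mcm2 (1.2), Cenpf (1.06) and Kif20a (1.02) were higher in T2DM too, while Nusap1 (-1.50) and Rrm2 (-1.42), the small subunit of ribonucleotide reductase, were lower. Genes of the neutrophil precursor and neutrophil lists stood apart between the same libraries. Prtn3 was at 2.22 and 1.91 in the CT pair, 1.28 in T1DM and 4.54 in T2DM Ly6Chigh MCs, and Mpo at 0.17, 1.40, 0.74 and 3.83. Fcnb (2.25, 1.38, 0.72 and 3.61) was also highest in T2DM, Ngp (1.53, 1.72, 2.89 and 3.07) was high in both models, and Ms4a3 (-1.40, -1.43, -2.36 and -1.38) was at CT level in T2DM. Ltf (-2.04, -0.55, 2.71 and 0.42) was higher in T1DM than in T2DM. Of the neutrophil list, S100a8 (6.90 in T2DM against 2.49 in T1DM), S100a9 (5.52 against 3.55), Mmp9 (3.41 against 2.41) and Csf3r (9.36 against 8.66) were higher in T2DM. Retnlg (-1.55 against 3.87) and Cxcr2 (2.79 against 2.95) were lower. The neutrophil precursor list had a log2 summed level of 10.38 and 10.40 (CT), 9.37 (T1DM) and 11.69 (T2DM), most of it from Chil3, a gene that is also on the classical monocyte list. The part of neutrophils or their precursors in the values of the cell cycle genes was not tested.

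In Ly6Clow MCs fewer members were past 2-fold than in Ly6Chigh MCs, and so were fewer of all rows. T1DM differed from CT by more than 2-fold in 2 of 47 members (8.81% of all rows), Ccne1 and Top2a, both higher, and without CT Ly6Clow replicate 1 or replicate 2 in 5 or 3 of 47. None was outside both CT libraries by more than 1 (5.08% of all rows). T2DM differed from CT by more than 2-fold in 4 of 47 (10.8% of all rows), and without CT Ly6Clow replicate 2 in 7 of 47. Outside both CT libraries by more than 1 were Ccnb1, Ccna2 and Plk1 (6.54% of all rows). Ccna2 stood at 1.80 in T2DM against 2.81 and 2.84 in CT, the lowest of the Ly6Clow libraries. The same T2DM Ly6Clow library stood apart in markers of other cells. Its NK cell list had a log2 summed level of 7.62, against 9.50 in each CT library and 9.99 in T1DM. Its neutrophil precursor list had one of 6.76, against 4.64, 4.68 and 4.17 (CT, CT, T1DM). In that list Chil3, which is also on the classical monocyte list, stood at 6.45, against 4.35, 4.09 and 3.88. The part of NK cells and neutrophil precursors was not tested. T2DM and T1DM Ly6Clow MCs differed by more than 2-fold in 6 of 47 (15.3% of all rows), of which Ccnd1 (-1.67), Ccna2 (-1.46) and Aurka (-1.03) were lower and E2f1 (1.04) was higher in T2DM.

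**Figure D5:**
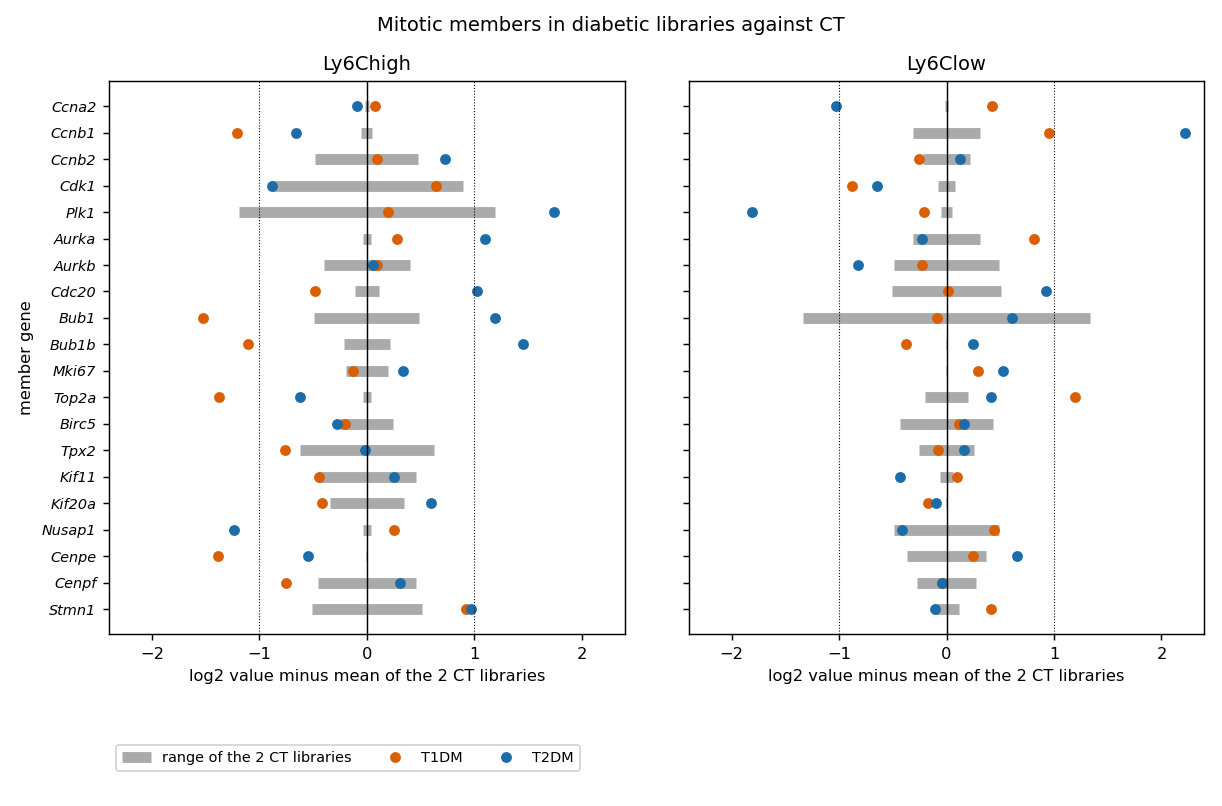
Log2 values of T1DM and T2DM libraries after subtraction of the CT mean of the same subset (x axis) for the 20 mitotic genes (y axis) in Ly6Chigh (left) and Ly6Clow MCs (right), with grey bars for the range of the CT libraries and dotted lines at 2-fold. In Ly6Chigh MCs, Bub1b lies at 1.45 in T2DM and at -1.10 in T1DM, and Top2a at -1.38 in T1DM.

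Of the 151 further cell cycle genes, 12 were past 2-fold in T1DM (10.1% of all rows) and 17 in T2DM Ly6Chigh MCs (13.8%) against CT, and 9 (8.81%) and 16 (10.8%) in Ly6Clow MCs. Ncapd2, a condensin subunit, stood at 2.37 in T1DM and 2.51 in T2DM against 4.01 and 3.95 in CT Ly6Chigh MCs, and at 5.28 in T1DM and 3.92 in T2DM against 3.44 and 3.48 in CT Ly6Clow MCs. Orc1, a subunit of the origin recognition complex, stood at 1.19 in T1DM and 2.27 in T2DM against 2.27 and 3.20 in CT Ly6Chigh MCs. In Ly6Clow MCs it stood at 3.09 and 3.16 against 2.15 and 1.21. In T2DM Ly6Clow MCs, the largest differences above CT among these genes with a mean value of at least 1 were those of E2f8, a repressive E2F factor (1.87), Prc1 of the central spindle (1.74) and Orc1 (1.47).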

How the data were processed

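Bulk RNA-Seq values of 8 libraries of sorted mouse blood MCs were analysed. Per the labels and methods, the authors pseudoaligned reads with Kallisto (0.45), used tximport (1.12.3, under R 3.6.1) to get gene values and deposited log2 values, and the build is given as mm10. How libraries were scaled, how low genes were filtered and whether CT and diabetic libraries were adjusted to each other is not given in the sources used here. Other libraries that the methods mention were not analysed here. Groups and replicates were taken from the sample titles, which the column names match.

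Here limma (3.58.1, lmFit and eBayes with trend) in R (4.3.3) was run on the log2 values of all 16486 rows without further scaling, with Benjamini-Hochberg adjustment, an adjusted p limit of 0.01 and an absolute log2FC limit of 1. The CT test used 4 libraries, the pooled test 8 with mouse group as covariate, and the diabetic tests a model of 4 cell means over 8 libraries. Comparisons with 1 library on a side had no test. Scripts were tested on simulated data. Tables and figures used Python (3.11.15) with numpy (2.4.6), pandas (2.3.3) and matplotlib (3.10.9). Shared 31-mers were counted over GENCODE M21 transcripts. The members and lists were chosen with earlier results of these data known. Named in full are members called, outside both CT libraries by more than 1 or past 2-fold between T1DM and T2DM at a mean of at least 1, and of the wider list the 3 largest rises and falls of a comparison. Single genes beyond this rule are named with their values.

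The alternatives were a filter at a mean of 1, log2(linear value + 1), quantile normalization, no trend, an adjusted p limit of 0.05, leaving out each CT library or diabetic group, and a replicate block. The replicate deviations of CT Ly6Chigh and CT Ly6Clow libraries had a correlation of 0.00892 over 16486 rows, so the numbers were not taken as pairs.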

Additional observations from a re-analysis of the deposited data

Results flagged for a closer look

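The T1DM and T2DM libraries lay on opposite sides of the CT libraries in Ly6Chigh MCs for a pair of spindle checkpoint genes. Bub1 was -1.53 from the CT mean in T1DM and 1.2 in T2DM, and Bub1b was -1.10 in T1DM and 1.45 in T2DM, each outside the range of the 2 CT libraries. Plk1, the Polo kinase, had a Ly6Chigh minus Ly6Clow difference of -1.03 in T1DM and 2.12 in T2DM. With 1 library per model and subset, none of these differences was tested. The means of Bub1 and Plk1 over the 8 libraries were under 1 on the log2 scale, and their CT libraries were up to 2.68 apart (Bub1 in Ly6Clow MCs) and 2.38 apart (Plk1 in Ly6Chigh MCs). The CT libraries of Bub1b were 0.42 apart in Ly6Chigh MCs. With at most 2 libraries in a group, outlying libraries could not be looked for. Whether the CT and diabetic libraries were adjusted to each other before deposit is not given in the sources used here. Whether such an adjustment bears on these deviations was not tested.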

How the results depend on the processing

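Counts of members called or past 2-fold depended on the settings as follows. The CT test called 1 member, and 4 after the low-value filter, 2 with quantile normalization, 8 at an adjusted p limit of 0.05, 0 without the trend, 0 with the replicate block and 0 to 0 without each CT library. Over all rows it called 581, and 1089, 692, 1936, 0, 0 and 0 under the same settings. The pooled test called 9 members, 5 without T1DM, 16 at 0.05 and 6 to 8 without each CT library. In 11 alternatives of the pooled test, Ccnd2, Ccne1, Mcm6 and Mcm7 were called in 11, E2f2 in 10, Tpx2 in 8, Uhrf1 in 5, Rrm1 in 4 and Stmn1 in 3, and no sign turned. The filter left 4 of 7 members past 2-fold for T1DM against CT Ly6Chigh MCs, 2 of 4 for T2DM against CT Ly6Clow MCs and 7 of 11 for T2DM against T1DM Ly6Chigh MCs. Adding 1 to the linear values left 2 of 7 for T1DM and 4 of 10 for T2DM against CT Ly6Chigh MCs, 1 of 2 for T1DM and 1 of 4 for T2DM against CT Ly6Clow MCs, and 3 of 11 and 2 of 6 for T2DM against T1DM in Ly6Chigh and Ly6Clow MCs. Without each CT library these counts were 9 to 9 for T1DM and 9 to 10 for T2DM in Ly6Chigh MCs, and 3 to 5 for T1DM and 5 to 7 for T2DM in Ly6Clow MCs. The 3 diabetic tests called 0 members under every alternative. Causes were not tested, except that the filter and the added 1 act by construction on low values, and 7 members had a mean under 1. With no counts deposited, no counting error can be given.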
